A study of Mus musculus with 28 samples.

Results

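The proteins described here cut, shed or protect what surrounds a cell: the matrix metalloproteases (MMPs), the ADAM and ADAMTS proteases, and the tissue inhibitors of metalloproteases (TIMPs). Members were taken by name, as every gene whose single annotated symbol starts with Mmp, Adam, Adamts or Timp followed by a digit. The rule found 61 of the 17097 genes on the array: 18 MMPs, 26 ADAMs, 14 ADAMTS proteases and 3 TIMPs. Where a gene had several probe sets, as 29 members did, the one with the highest mean over the arrays stood for it. Mmp15, Adamts2 and Timp4 were not analysed here.

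Levels were measured on 28 Affymetrix arrays of cells sorted by flow cytometry from the mammary glands of female mice, in 11 groups. All mice carried a tamoxifen-inducible Cre, driven by the luminal keratin 8 promoter (K8CREERT2) or the basal keratin 5 promoter (K5CREERT2), and a RosaYFP reporter, and received 3 injections of 5 mg tamoxifen from the age of 4-5 weeks. The control cells, called YFP luminal (K8CREERT2/RosaYFP) and YFP basal (K5CREERT2/RosaYFP), were taken 8 weeks and 10 months after tamoxifen, with 2 arrays in each of these 4 groups. Mice that also carried the oncogenic PIK3CA-H1047R gave 4 further groups of 2 arrays: luminal and basal gate YFP+ cells of K8CREERT2 mice after 8 weeks (K8-PIK luminal and K8-PIK basal) and of K5CREERT2 mice after 10 months (K5-PIK luminal and K5-PIK basal). Because YFP marks the cells in which Cre acted and their progeny, K8-PIK basal cells are luminal-derived cells found in the basal gate, and K5-PIK luminal cells are basal-derived cells found in the luminal gate. Tumour cells came from K8CREERT2/PIK3CA-H1047R/RosaYFP mice (K8-PIK tumours, 7 arrays), from K5CREERT2/PIK3CA-H1047R/RosaYFP mice (K5-PIK tumours, 3 arrays) and from K8CREERT2/PIK3CA-H1047R/p53flox/flox/RosaYFP mice (K8-PIK-p53 tumours, 2 arrays). For the tumours the labels give neither the time after tamoxifen nor a YFP gate. Gate is not the only difference between YFP luminal and YFP basal cells, since each has its own Cre driver, whereas the K8-PIK and the K5-PIK gate comparisons each lie within 1 driver. The labels do not say that replicates came from separate mice, so the p-values measure the spread between these arrays, which may be technical.

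MMPs are secreted or membrane-bound zinc proteases that cleave collagens, laminins and other matrix proteins and are made as inactive precursors. ADAMs are mostly membrane-anchored and shed the outer parts of growth factors, Notch ligands and cadherins. ADAMTS proteases are secreted and act mainly on proteoglycans and procollagens. TIMPs bind the active site of these enzymes and block it. In the mammary gland the basal, myoepithelial layer lies on the basement membrane, and protease activity at that boundary is known from branching, involution and tumour invasion.

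Several inducible MMP genes lie side by side on mouse chromosome 9, where 10 Mmp genes follow each other and 9 of them are members. The promoters of 4 of them, Mmp3, Mmp10, Mmp12 and Mmp13, are printed because these genes, with Mmp2, Mmp9 and Adam12, had the largest differences between K8-PIK-p53 tumours and normal luminal cells; the 4 were chosen after their values were seen. Each sequence runs from 250 bases before to 50 bases after the annotated start (RefSeq, GRCm38.p6, plus strand), and the capitals mark the match to the AP-1 motif TGACTCA or its reverse complement TGAGTCA.
Mmp3, chr9:7445572-7445871: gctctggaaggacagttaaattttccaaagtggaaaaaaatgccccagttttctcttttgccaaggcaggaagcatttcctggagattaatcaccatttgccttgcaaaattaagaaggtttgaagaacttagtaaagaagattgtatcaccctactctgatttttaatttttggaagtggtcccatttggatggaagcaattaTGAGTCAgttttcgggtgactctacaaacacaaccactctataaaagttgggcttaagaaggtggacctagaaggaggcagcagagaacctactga
Mmp10, chr9:7502092-7502391: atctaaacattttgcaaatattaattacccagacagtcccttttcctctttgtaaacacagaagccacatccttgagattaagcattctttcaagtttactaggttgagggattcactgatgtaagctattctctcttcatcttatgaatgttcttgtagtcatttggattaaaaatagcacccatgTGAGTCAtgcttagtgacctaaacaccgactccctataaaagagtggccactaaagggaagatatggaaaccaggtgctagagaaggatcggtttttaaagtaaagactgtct
Mmp12, chr9:7347124-7347423: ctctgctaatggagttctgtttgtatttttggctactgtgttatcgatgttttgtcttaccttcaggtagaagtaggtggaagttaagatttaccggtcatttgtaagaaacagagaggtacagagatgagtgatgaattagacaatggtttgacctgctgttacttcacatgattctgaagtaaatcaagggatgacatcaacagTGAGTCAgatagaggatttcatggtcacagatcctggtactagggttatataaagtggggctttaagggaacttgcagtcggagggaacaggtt
Mmp13, chr9:7272264-7272563: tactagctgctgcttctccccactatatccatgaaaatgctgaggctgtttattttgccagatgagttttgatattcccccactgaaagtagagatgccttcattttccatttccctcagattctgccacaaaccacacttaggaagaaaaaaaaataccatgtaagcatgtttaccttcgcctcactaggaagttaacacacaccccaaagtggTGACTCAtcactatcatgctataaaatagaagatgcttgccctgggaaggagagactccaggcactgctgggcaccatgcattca
The AP-1 motif, searched on both strands, was found in the promoters of 7 of the 9 members of this row that have a promoter in the table, and in 2 of the 26 other members with one, Adam19 and Adam1b. Those counts are of genes, some of which have several promoters. Counted by promoter, 9 of the 40 of members held it (22.5%), against 1709 of 32851 over all promoters of this length (5.20%). A match is only a run of letters and says nothing about binding in these cells.

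**Figure D1:**
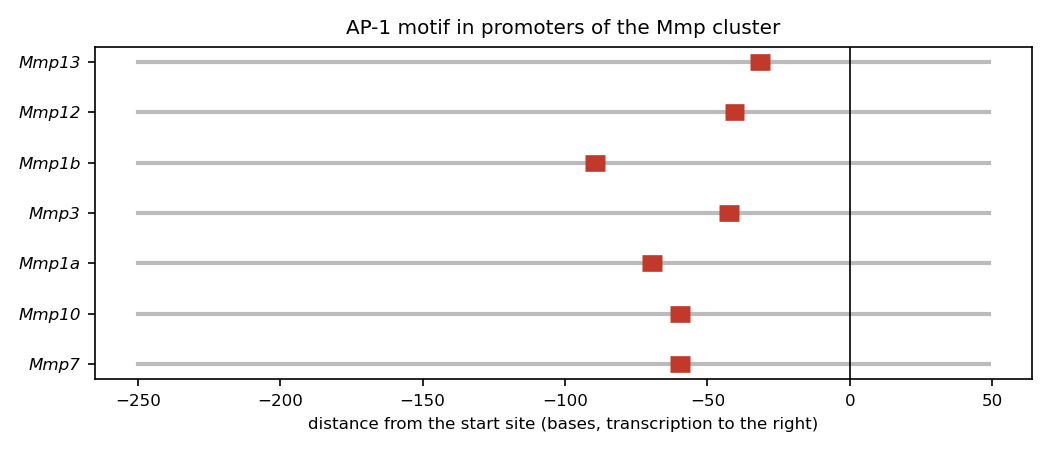
Positions of the AP-1 motif, on a horizontal axis in bases from the annotated start, for the 7 Mmp genes of the chromosome 9 row that hold it, each on its own line. The motif lies from position -46 to -40 in Mmp3, from -63 to -57 in Mmp10, from -44 to -38 in Mmp12 and from -35 to -29 in Mmp13, where the start is 0.

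Values are log2 levels as deposited, and a difference of 1 is a doubling. A member was tested where it was above the 40th percentile of its array, a log2 level of 3.89 to 3.99, on at least 2 arrays of a fit. Of the 61 members, 39 were tested among the sorted cells and 43 in the fits with tumours. Mmp12, Mmp13, Adam18 and Adam23 passed the filter only in the latter. A called member that lay at or below that percentile on every array of 1 of the groups compared has only an upper bound there. It entered the test through the group where it is high, so its call is a description, and the difference between its high group and the percentile is given as a lower bound ("at least"). The remaining 18 members, among them Mmp7, Mmp8, Mmp20, Mmp1a and Mmp1b of the chromosome 9 row, were never above that percentile. A member was called where limma's Benjamini-Hochberg adjusted p, taken over all genes tested, was below 0.05. Array medians lay between 4.4 and 4.5, and replicates of the sorted cells correlated at 0.973 to 0.995 over all genes against 0.919 to 0.982 among K8-PIK tumours. The log2 level of Pik3ca lay between 7.21 and 8.29 on all arrays and did not separate oncogene from control groups, and the p53 deletion was not checked here. The gates carried the markers of their names: all 7 basal markers were called higher in YFP basal than in YFP luminal cells at both times, and all 9 luminal markers lower.

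Over the 11 groups 26 of the 43 members tested differed by limma's moderated F test, where 56.4% of all genes did. The 26 were 8 of 13 MMPs, 8 of 16 ADAMs, 7 of 11 ADAMTS proteases and all 3 TIMPs. The lowest adjusted p belonged to Adamts18 (2.74e-07), followed by Adamts1 (1.34e-06) and Adamts5 (8.15e-06). Adam15, Adam17, Mmp11 and Mmp14 were among the 17 members not called.

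Normal basal cells held more of most of the varying proteases than normal luminal cells. At 8 weeks 16 of 39 members were called between YFP basal and YFP luminal cells, 14 higher in basal and 2 lower, where 30.3% of all genes were called, 10.4% higher and 19.9% lower. At 10 months 21 were called, 16 higher in basal and 5 lower, beside 43.4% of all genes, 17.6% higher and 25.8% lower. The median difference of the members was 0.254 at 8 weeks and 0.300 at 10 months, against -0.0947 and -0.124 over all genes. In bulk samples fewer cells of a type and less RNA per cell cannot be told apart.

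Among the matrix-cleaving MMPs the gelatinase Mmp2, which digests denatured collagen and type IV collagen, differed most. Its log2 level was 4.03 and 5.70 in the YFP luminal arrays at 8 weeks and 9.42 and 9.84 in the YFP basal arrays. At 10 months it was 5.14 and 5.25 in luminal and 10.16 and 10.43 in basal cells. No luminal array came within 3 log2 units of a basal one, and the differences were 4.77 ± 0.56 (SE, 2 arrays a group), or 27.2-fold, at 8 weeks (limma adjusted p = 0.0001) and 5.10 ± 0.56, or 34.2-fold, at 10 months (adjusted p = 2.72e-05). The membrane-anchored Mmp17 was higher in basal cells by 1.55 ± 0.37 at 8 weeks (adjusted p = 0.00813) and by 1.39 ± 0.37 at 10 months (adjusted p = 0.00945). Mmp23 was also called higher at both times. Mmp11, stromelysin 3, was called only at 8 weeks (1.50 ± 0.42, adjusted p = 0.0171) and Mmp3, stromelysin 1, only at 10 months (2.54 ± 0.64, adjusted p = 0.00717), and whether these differ with time did not pass the test given below. Mmp14, the membrane-type collagenase that activates the Mmp2 precursor, lay between 8.51 and 8.61 in all 4 YFP luminal arrays and between 8.54 and 9.19 in YFP basal arrays; it differed by 0.11 at 8 weeks (adjusted p = 0.73) and by 0.64 ± 0.21 at 10 months (adjusted p = 0.0271). Mmp16 was lower in basal cells at 10 months by at least 0.62 (fitted -1.14, adjusted p = 0.00702). Mmp9, the other gelatinase, stayed between 4.04 and 4.69 in all 8 YFP arrays.

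Of the 11 ADAMTS proteases tested, 7 were called higher in YFP basal cells at each time and none lower. The proteoglycan-cleaving Adamts1 was at 5.82 and 5.59 in luminal and 8.95 and 8.72 in basal cells at 8 weeks. At 10 months it was at 5.39 and 5.63 in luminal and 10.24 and 10.08 in basal cells. The gates did not overlap, and the differences were 3.13 ± 0.21 (8.76-fold, adjusted p = 2.43e-06) and 4.65 ± 0.21 (25.2-fold, adjusted p = 7.22e-08). Adamts5, an aggrecanase, was at 4.07 and 4.01 in luminal and 6.11 and 6.16 in basal cells at 8 weeks, and at 4.00 and 4.19 against 7.62 and 7.67 at 10 months. Its differences were 2.10 ± 0.17 (adjusted p = 7.76e-06) and 3.55 ± 0.17 (adjusted p = 8.78e-08). Adamts18 stood at 2.92 to 3.21 in the 4 luminal arrays, below the filter level, and at 5.94 to 6.89 in the 4 basal arrays. It was higher in basal cells by at least 2.60 at 8 weeks (fitted 3.44 ± 0.24, adjusted p = 3.33e-06) and by at least 2.13 at 10 months (fitted 3.04 ± 0.24, adjusted p = 2.36e-06). Adamts9 was higher by 1.94 ± 0.46 and 2.49 ± 0.46, Adamts4 by 1.96 ± 0.68 and 1.95 ± 0.68, Adamts7 by 1.25 ± 0.27 and 1.34 ± 0.27, and Adamts10 by 0.66 ± 0.19 and 0.57 ± 0.19 at 8 weeks and 10 months. The other Adamts10 probe set went the other way at 10 months, by -0.21.

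The ADAMs split by direction. Adam10, the main sheddase of Notch receptors and E-cadherin, was the other way round from Mmp2: it was at 10.18, 10.06, 10.34 and 10.38 in the 4 YFP luminal arrays and at 8.35, 8.48, 8.70 and 8.52 in the 4 basal arrays. Its basal minus luminal difference was -1.71 ± 0.40 (3.28-fold lower, adjusted p = 0.00738) at 8 weeks and -1.75 ± 0.40 (adjusted p = 0.00403) at 10 months. Adam8, a sheddase best known from leukocytes, was also lower in basal cells, at 4.42 and 4.52 against 7.23 and 6.53 at 8 weeks (-2.41 ± 0.49, adjusted p = 0.00312) and at 4.82 and 4.35 against 6.18 and 6.16 at 10 months (-1.58 ± 0.49, adjusted p = 0.0192). Adam19, which can shed neuregulin, was higher in basal cells by 1.76 ± 0.26 at 8 weeks (adjusted p = 0.000459) and by at least 2.36 at 10 months (fitted 2.71 ± 0.26, adjusted p = 9.42e-06). Adam12, a marker of activated mesenchymal cells, was at 4.48 and 4.64 in basal cells at 8 weeks, not called against luminal cells (1.00, adjusted p = 0.0712), and at 6.91 and 6.67 at 10 months, higher than luminal cells by at least 2.85 (fitted 3.38 ± 0.39, adjusted p = 3.94e-05). Adam22, which lacks protease activity, was called higher at both times and Adam33 lower at 10 months. Adam17, the TNF-converting enzyme, differed by -0.54 ± 0.20 at 8 weeks and missed the threshold (adjusted p = 0.0637).

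Of the inhibitors, Timp3, which stays bound to the matrix and also blocks ADAMs, was at 7.99 and 7.63 in luminal and 9.88 and 10.05 in basal cells at 8 weeks, and at 7.39 and 7.30 against 10.40 and 10.70 at 10 months. It was higher in basal cells by 2.16 ± 0.44 (adjusted p = 0.00326) and 3.20 ± 0.44 (adjusted p = 0.000135). Timp2 was not called at 8 weeks (0.32, adjusted p = 0.274) and was lower in basal cells at 10 months by 0.89 (adjusted p = 0.00448). Timp1 differed by -0.26 at 8 weeks and was not called (adjusted p = 0.722).

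**Figure D2:**
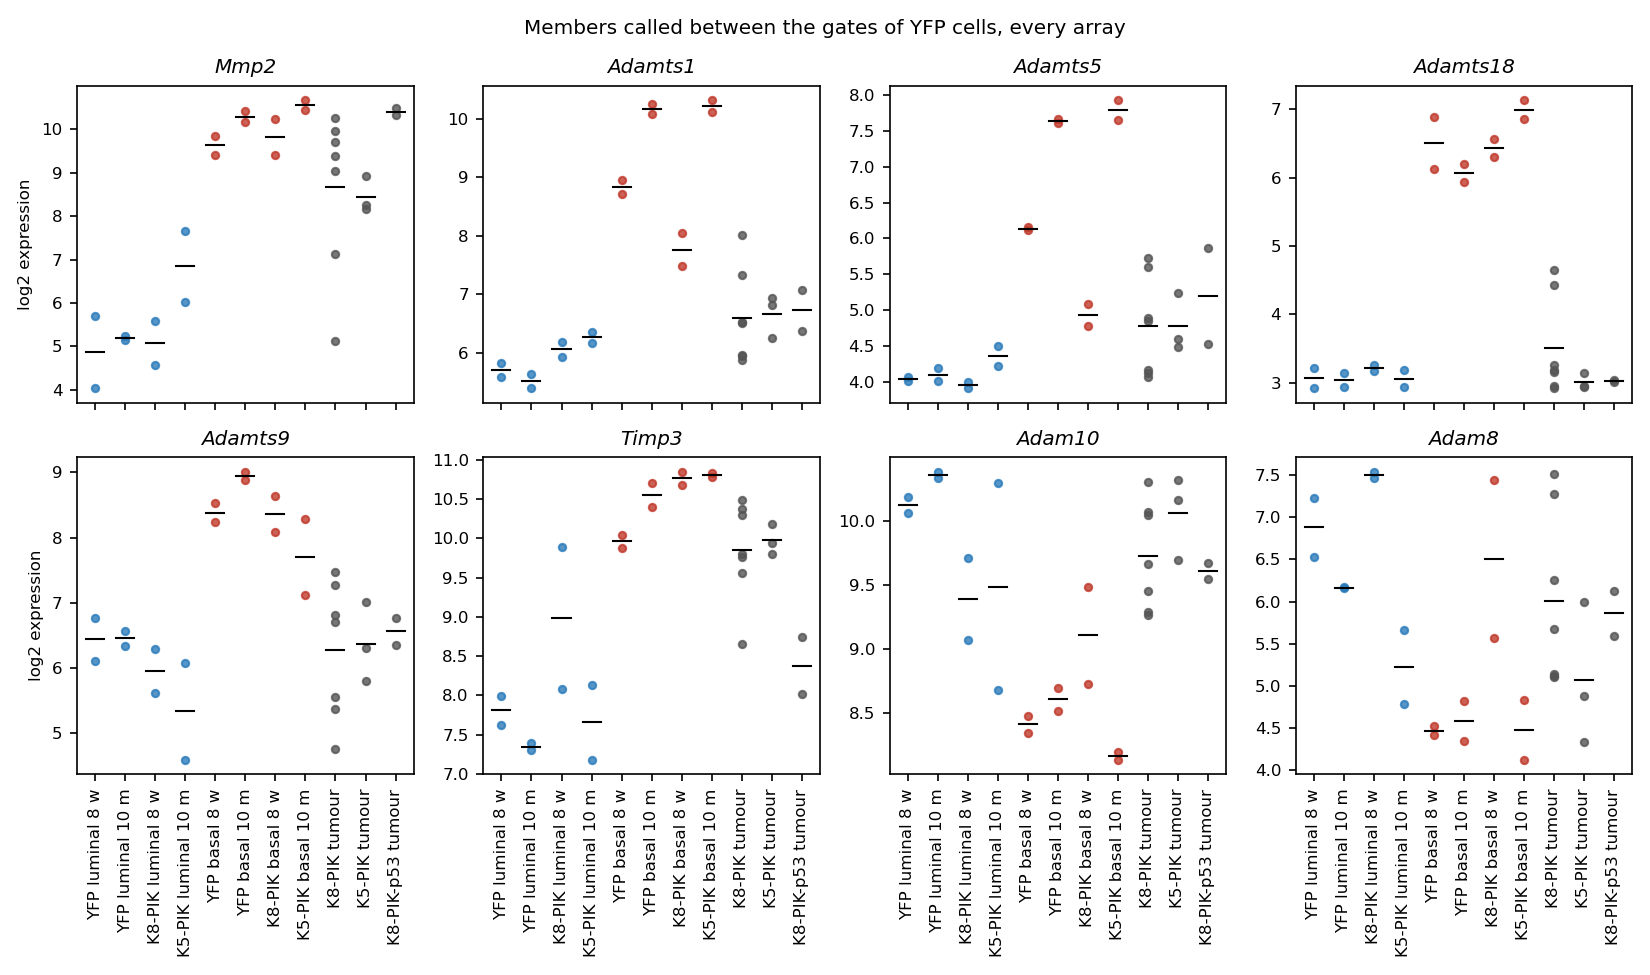
Log2 level (vertical axis) of 8 members called between the gates of YFP cells, with every array as a point, the group mean as a bar and the 11 groups along the horizontal axis (blue luminal gate, red basal gate, grey tumours). Mmp2, Adamts1, Adamts5, Adamts18, Adamts9 and Timp3 are higher in the YFP basal groups and Adam10 and Adam8 are higher in the YFP luminal groups; Adamts18 lies between 2.92 and 3.21 in the 4 YFP luminal arrays and between 5.94 and 6.89 in the 4 YFP basal arrays.

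At 8 weeks the calls of Mmp2, Adamts1, Adamts5, Adamts7, Adamts18, Adam8, Adam10, Adam19 and Timp3 held without each of the 4 arrays; 9 members were called without the first YFP luminal array, and a fit on all 28 arrays also called 9. At 10 months 12 of the 21 calls held without each array, the call of Mmp3 was lost without the second YFP basal array, and the 28-array fit called 11. Endothelial markers moved with the gate: 6 of 8 were called higher in YFP basal cells at 8 weeks and 8 of 8 at 10 months, with median array means of 6.90 and 6.76 in basal and 5.17 and 4.82 in luminal cells. Of 4 pericyte markers tested, Pdgfrb and Rgs5 were called higher in YFP basal cells at both times, by 1.22 and 2.10 at 8 weeks and by 0.75 and 3.30 at 10 months, and Notch3 lower. In the 2 gate comparisons of oncogene-carrying cells 0 of 8 endothelial markers were called by limma, with medians of 5.86 in K8-PIK basal against 5.27 in K8-PIK luminal cells and 4.92 in K5-PIK basal against 4.63 in K5-PIK luminal cells. The part of endothelial cells and pericytes in the gate differences of the members was not tested.

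In the oncogene-carrying mice the same gates, now within 1 Cre driver, again differed. Between K8-PIK basal and K8-PIK luminal cells 12 of 39 members were called, all higher in the basal gate, where 19.5% of all genes were called and 8.90% higher. Between K5-PIK luminal and K5-PIK basal cells 17 were called, 2 higher and 15 lower in the luminal gate, beside 23.6% of all genes, 10.4% higher and 13.2% lower. Across all 4 gate comparisons 9 of the 39 members (23.1%) were called higher in the basal gate each time, against 633 of 13150 genes (4.81%). Among the 9, Adamts18 lay at or below the filter level in the luminal gate in every comparison. Adam22 did so in all but that of YFP cells at 10 months. Those calls are descriptions, and such calls were not taken out of either share. The 4 comparisons share no array, though they share 1 estimate of the spread.

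Mmp2 was at 5.59 and 4.56 in K8-PIK luminal and at 10.24 and 9.41 in K8-PIK basal cells. The luminal-derived cells of the basal gate thus lay close to the YFP basal range of 9.42 to 10.43, and exceeded K8-PIK luminal cells by 4.75 ± 0.56 (adjusted p = 0.000119). Adamts18 was at 3.17 and 3.26 in K8-PIK luminal and 6.30 and 6.57 in K8-PIK basal cells, a difference of at least 2.53 (fitted 3.22 ± 0.24, adjusted p = 6.83e-06). Adam12 was higher in the basal gate by at least 2.08 (fitted 2.86 ± 0.39, adjusted p = 0.000335), Adamts9 by 2.40 ± 0.46, Adamts7 by 2.36 ± 0.27, Adam19 by 1.99 ± 0.26, Timp3 by 1.78 ± 0.44 and Adamts1 by 1.71 ± 0.21. Adam28, Adamts10, Adamts5 and Adam22 were the other 4. Adam10 was at 9.71 and 9.07 in K8-PIK luminal and 8.73 and 9.48 in K8-PIK basal cells, so the gates overlapped and it was not called (-0.28, adjusted p = 0.683); Adam8 differed by -1.0 (adjusted p = 0.179). The calls of Adam22 and Timp3 were each lost without at least 1 array, Timp3 without K8-PIK luminal array 2 or K8-PIK basal array 1. The 28-array fit called 7 members.

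Among basal-derived cells, Mmp2 was at 7.67 and 6.03 in the luminal gate and 10.67 and 10.44 in the basal gate, lower in luminal by 3.71 (-3.71 ± 0.56, adjusted p = 0.000393). The K5-PIK luminal arrays were above the highest YFP luminal array, at 5.70, and below every basal gate array. Adamts1 was at 6.36 and 6.17 against 10.11 and 10.31 (-3.95 ± 0.21, adjusted p = 2.96e-07), Adamts5 at 4.22 and 4.5 against 7.65 and 7.93 (-3.43 ± 0.17, adjusted p = 2.65e-07) and Adamts18 at 2.94 and 3.19 against 6.85 and 7.13, lower by at least 3.03 (fitted -3.93 ± 0.24, adjusted p = 6.31e-07). Timp3 was lower in the luminal gate by 3.15 (-3.15 ± 0.44, adjusted p = 0.000214), Adam12 by at least 2.25 (fitted -2.78 ± 0.39, adjusted p = 0.000228) and Mmp14 by 0.91 (-0.91 ± 0.21, adjusted p = 0.00695). Adam28, Adam22, Mmp11, Mmp17, Adamts4, Adamts7, Adamts9 and Adamts10 completed the 15. Adam10 was higher in the luminal gate, at 8.68 and 10.29 against 8.14 and 8.19 (1.32 ± 0.40, adjusted p = 0.0314), with 1 of the 2 luminal arrays close to the basal ones, and its call was lost without 3 of the 4 arrays. Adamts3, a procollagen-processing enzyme, was higher by at least 1.04 (fitted 1.23 ± 0.27, adjusted p = 0.00532). Of the 17 calls 10 held without each array, and the 28-array fit called 9.

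**Figure D3:**
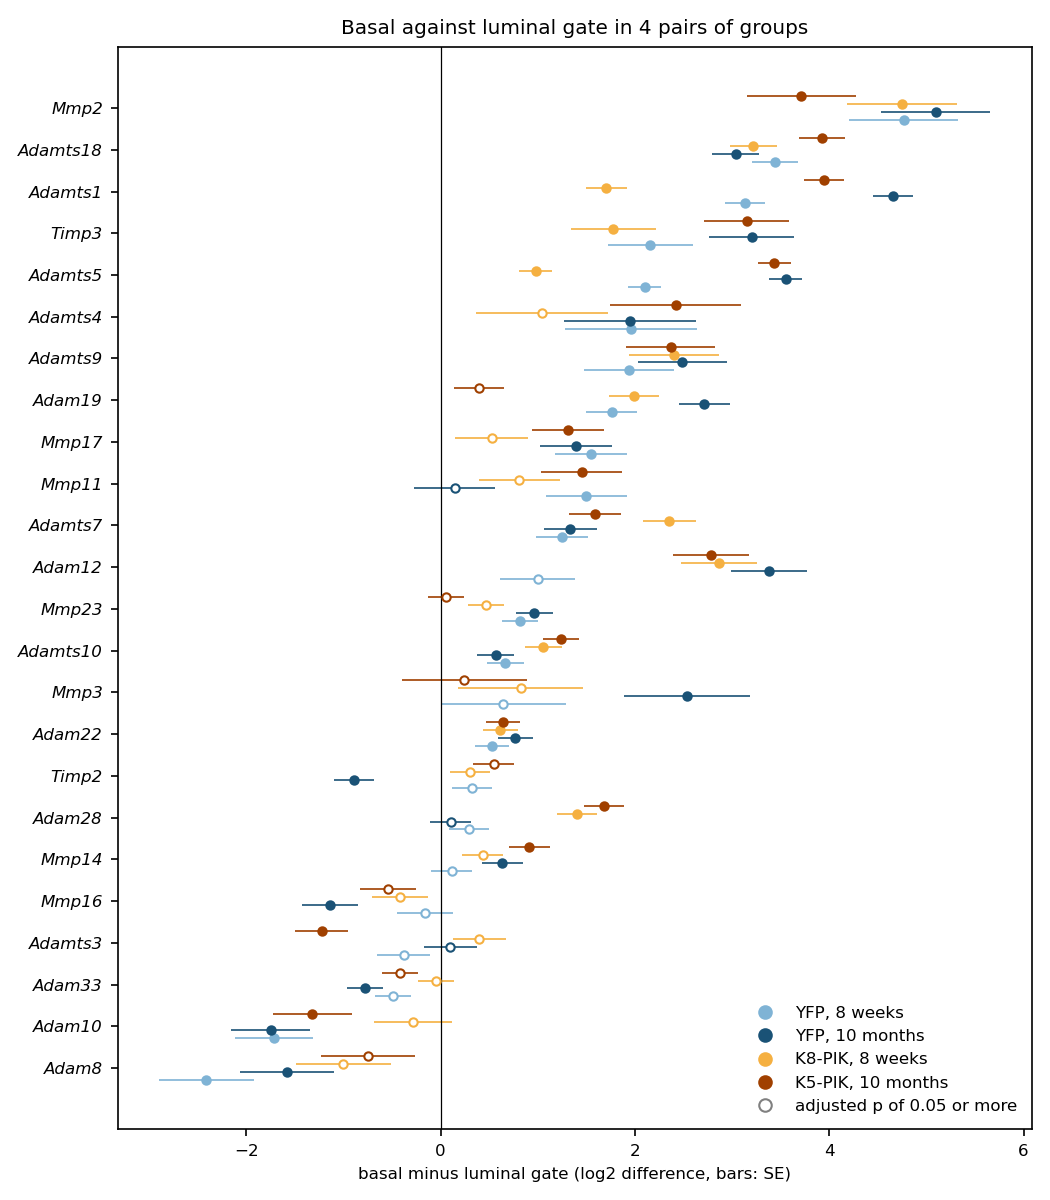
Basal minus luminal gate difference in log2 level (horizontal axis, ± SE) for 24 members in 4 pairs of groups: YFP cells at 8 weeks (light blue) and 10 months (dark blue), K8-PIK cells (orange) and K5-PIK cells (brown); open points have an adjusted p of 0.05 or more. Mmp2, Adamts18, Adamts1, Adamts5, Adamts9 and Timp3 lie to the right of 0 with filled points in all 4 pairs.

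Set against normal cells of the gate they were found in, the cells that had changed gate differed at few members. Between K8-PIK basal and YFP basal cells at 8 weeks 3 of 39 were called, 1 higher and 2 lower, where 0.418% of all genes were called, 0.335% higher and 0.0837% lower. Adam28 was at 6.34 and 6.08 in K8-PIK basal and 4.35 and 4.52 in YFP basal cells (1.78 ± 0.21, adjusted p = 0.00845). Adamts1, at 8.04 and 7.48 against 8.95 and 8.72, was lower (-1.07 ± 0.21, adjusted p = 0.0475), as was Adamts5, at 4.78 and 5.08 against 6.11 and 6.16 (-1.21 ± 0.17, adjusted p = 0.0174). Both lay between YFP luminal and YFP basal values. None of the 3 calls held without each array, 0 were called without K8-PIK basal array 2, and the 28-array fit called 0. Cre driver differs between these groups. 

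Between K5-PIK luminal and YFP luminal cells at 10 months 4 members were called, 3 higher and 1 lower, beside 6.40% of all genes, 2.08% higher and 4.32% lower. Mmp23 was at 6.77 and 6.85 against 5.54 and 5.54 (1.28 ± 0.19, adjusted p = 0.00324) and was the only one of the 4 called without each array. Adamts3 was higher by at least 1.05 (fitted 1.21 ± 0.27, adjusted p = 0.022) and Adamts1 by 0.76 ± 0.21 (adjusted p = 0.0487). Timp1, which inhibits most secreted MMPs, was at 7.24 and 6.57 against 9.65 and 8.75 (-2.29 ± 0.47, adjusted p = 0.0156). Without YFP luminal array 1 only Mmp23 was called, without K5-PIK luminal array 2 the count was 7, and the 28-array fit called 0.

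In cells that kept their gate at 8 weeks no member passed the test. Between K8-PIK luminal and YFP luminal cells limma called 0 of 39 members and 0.350% of all genes. An unadjusted p below 0.05 was found for 4 members and for 1441 of 13150 genes. Adam28 differed by 0.66 ± 0.21 (adjusted p = 0.237) and Timp3 by 1.18 ± 0.44 (adjusted p = 0.322). Timp3 was at 9.88 and 8.09 in K8-PIK luminal cells against 7.99 and 7.63, so 1 of its arrays stood above the rest, and without the other, K8-PIK luminal array 2, it was the single member called (adjusted p = 0.02).

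After 10 months K5-PIK basal cells differed from YFP basal cells at 7 members, 5 higher and 2 lower, where 16.3% of all genes were called, 8.28% higher and 8.02% lower. Adam19 was at 4.09 and 4.00 against 6.53 and 6.07, the largest of these differences (-2.26 ± 0.26, adjusted p = 0.00134). Adam9 was at 6.05 and 4.75 against 6.57 and 6.83 (-1.30 ± 0.35, adjusted p = 0.0265). Adam28 was at 6.41 and 5.75 against 4.70 and 4.67 (1.40 ± 0.21, adjusted p = 0.00257), so that Adam28 was called higher in basal gate cells with the oncogene from both origins, each against YFP basal cells of its own time. Mmp11 was higher by 1.71 ± 0.42 (adjusted p = 0.018), Timp2 by 0.93 ± 0.21 (adjusted p = 0.0128), Adamts18 by 0.92 ± 0.24 (adjusted p = 0.0231) and Adamts10 by 0.60 ± 0.19 (adjusted p = 0.0468). Mmp2 (0.26, adjusted p = 0.782) was not called, and Adamts1, Adamts5 and Timp3 differed by 0.05, 0.14 and 0.26 without a call. The calls of Adam19 and Adam28 held without each array, and no others did: 2 members were called without YFP basal array 1 or K5-PIK basal array 2, 4 without YFP basal array 2 and 10 without K5-PIK basal array 1. The 28-array fit called 1, Adam19. Endothelial markers differed in the same comparison, 6 of 8 called lower, with medians of 4.92 against 6.76; their part in the change of Adam19 and Adam9 was not tested.

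A few members differed between the 2 times in YFP basal cells. Mouse age differs with time after tamoxifen, and each time has its own 2 arrays, so these cannot be told apart. Between 10 months and 8 weeks 3 of 39 members were called in YFP basal cells, all higher at 10 months, where 1.27% of all genes were called, 0.875% higher and 0.395% lower. Adam12 was higher at 10 months by 2.23 ± 0.39 (adjusted p = 0.0261), Adamts5 by 1.51 ± 0.17 (adjusted p = 0.00382) and Adamts1 by 1.33 ± 0.21 (adjusted p = 0.0178), and the arrays of the 2 times did not overlap for any of the 3. None of these calls held without each array, 0 were called without YFP basal array 1 of 10 months, 1 without array 2 of either time, and the 28-array fit called 0. In YFP luminal cells limma called 0 of 39 members over the same interval, where 0.0608% of all genes were called, 0.0304% in each direction. An unadjusted p below 0.05 was found for 5 members and for 1227 of 13150 genes. Timp2 differed by 0.74 ± 0.21 (adjusted p = 0.239) and Timp1 by 1.04. The test of whether the gate difference changed with time gave an unadjusted p below 0.05 for 7 members and 1654 of 13150 genes. It called 0 members, where 0.0532% of all genes were called, 0.0228% with a positive and 0.0304% with a negative value. With a replicate block the count was 2, and with quantile normalization or no dim filter it was 1. The closest were Adamts5 (1.45 ± 0.24, adjusted p = 0.0546), Adamts1 (1.52 ± 0.29, adjusted p = 0.0645) and Adam12 (2.38 ± 0.55, adjusted p = 0.115).

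K8-PIK tumours held more of several proteases than the normal luminal cells from which the K8 promoter traces them. Of 43 members 7 were called against YFP luminal cells, taken as the average of both times, all higher, where 10.6% of all genes were called, 4.47% higher and 6.13% lower. The members' median difference was 0.444 and that of all genes -0.0009. The time after tamoxifen differs or is unknown in this comparison.

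Mmp2 was at 9.37, 10.27, 9.97, 7.13, 5.13, 9.70 and 9.05 in K8-PIK tumours 1 to 7 against 4.03 to 5.70 in the 4 YFP luminal arrays. Tumour 5 lay within the luminal range and the others above it, and the difference was 3.63 ± 0.70 (12.4-fold, adjusted p = 0.00307). Timp3 was at 9.76, 10.37, 10.49, 8.66, 9.56, 10.30 and 9.79 against 7.30 to 7.99, without overlap (2.27 ± 0.32, 4.82-fold, adjusted p = 0.000239). Adam12 was called with a difference of 2.56 ± 0.76 (adjusted p = 0.037), although tumours 4 and 5, at 3.97 and 3.42, lay in the luminal range of 3.14 to 3.98. Adamts7 (1.32 ± 0.32), Adam28 (1.03 ± 0.31), Adamts10 (1.02 ± 0.31) and Adamts1 (0.99 ± 0.31) were also called. The calls of Mmp2 and Timp3 held without each array. The count was 2 without any one of YFP luminal array 1 of 8 weeks or arrays 1 and 2 of 10 months, 3 without YFP luminal array 2 of 8 weeks or tumour 6 and 4 without tumour 7, and a fit on the groups compared alone called 1, Timp3 (adjusted p = 0.00944), with Mmp2 at an adjusted p of 0.0529.

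Adamts18 was at 4.42 and 4.66 in tumours 1 and 6 and between 2.93 and 3.26 in the other 5, and it was not called over the group. The mean of the basal markers was 9.90 and 9.60 in tumours 1 and 6 and between 6.97 and 8.62 in the others.

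Markers of the basal layer and some of fibroblasts also differed between K8-PIK tumours and YFP luminal cells. Of the basal markers 5 of 7 were called higher in K8-PIK tumours than in YFP luminal cells (Krt5 by 2.49, Trp63 by 2.27, Acta2 by 2.09, Krt14 by 1.64 and Mylk by 2.30), and of the luminal markers 2 of 9 were called lower, Esr1 (-1.35) and Pgr (-2.38). Of the 7 fibroblast markers tested of 8 listed, 2 were called higher, Col1a1 by 2.81 and Col3a1 by 3.15. The mean level of the fibroblast list was 6.17, 8.07, 7.71, 5.45, 4.87, 5.93 and 6.31 in tumours 1 to 7 and 4.75 to 5.75 in YFP luminal arrays, and it was lowest in tumour 5, where Mmp2 and Adam12 were lowest too. Timp3 was lowest in tumour 4, and tumour 3, the highest for Adam12 and Timp3, had a basal marker mean of 7.19. Pdgfra, Lum, Col1a2, Dpt and Fap were not above the 40th percentile on every K8-PIK tumour array. Of the macrophage and other immune markers 0 of 11 were called by limma, and no endothelial or pericyte marker was. The part of basal cells or fibroblasts in the higher members was not tested.

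Most of the members called between K5-PIK tumours and normal basal cells were lower in the tumours. Of 43 members 9 were called (20.9%), 2 higher and 7 lower, beside 30.0% of all genes, 15.5% higher and 14.5% lower. The median difference was 0.0617 for the members and 0.0359 for all genes, so the members as a set were not lower. Adamts18 was at 2.93, 2.95 and 3.15 in the 3 tumours against 5.94 to 6.89 in the 4 YFP basal arrays, and so at or below the filter level as in normal luminal cells, lower by at least 2.35 (fitted -3.28 ± 0.33, adjusted p = 3.76e-06). Adamts1 was at 6.25, 6.81 and 6.94 against 8.72 to 10.24 (-2.83 ± 0.38, adjusted p = 3.86e-05). Adamts5 was at 4.59, 4.49 and 5.23 against 6.11 to 7.67 (-2.12 ± 0.36, adjusted p = 0.000264). Adamts9 was lower by 2.29 (-2.29 ± 0.54, adjusted p = 0.00313), Adam19 by 1.76 (-1.76 ± 0.45, adjusted p = 0.00521), Mmp17 by 1.29 (-1.29 ± 0.35, adjusted p = 0.00909), and Adam1a, known from sperm, by 1.44 (-1.44 ± 0.37, adjusted p = 0.00622). Adam10 was at 9.69, 10.32 and 10.16 against 8.35 to 8.70 and was higher by 1.55 ± 0.31 (adjusted p = 0.000917). Adam28 was higher by 1.02 ± 0.38 (adjusted p = 0.0466).

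Mmp2, at 8.25, 8.17 and 8.94 in K5-PIK tumours against 9.42 to 10.43 in YFP basal cells, was not among the 9 calls but was called in a fit on these groups alone (-1.51, adjusted p = 0.00162), which called 15. Without each array of the groups in turn 8 members were called, 7 of the 9 holding each time; Adam28 was lost in all cases and Mmp17 without K5-PIK tumour 1. Endothelial markers were also lower in K5-PIK tumours than in YFP basal cells, 6 of 8 called, as was the mean of the basal markers, at 8.59, 8.01 and 8.66 against 10.04 to 10.41, with 4 of 7 called lower. Of the luminal markers 7 of 9 were called higher, among them Foxa1 by 3.41, Elf5 by 3.27, Cldn3 by 2.63 and Kit by 2.54. Their part in these differences was not tested.

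The change from normal cells to tumours differed by origin at 11 of 43 members (25.6%), a share near that of all genes, where 24.1% differed, 13.1% with a higher and 11% with a lower value for basal origin. For 9 members the basal-origin change was lower and for Adam10 and Adam33 it was higher. Mmp2 changed by 3.63 from luminal cells to K8-PIK tumours and by -1.51 from basal cells to K5-PIK tumours, a difference of -5.14 ± 1.10 (adjusted p = 0.0022). The corresponding difference was -3.82 ± 0.49 for Adamts1 (adjusted p = 3.86e-05), -3.74 ± 0.43 for Adamts18 (adjusted p = 1.3e-05), -2.83 ± 0.47 for Adamts5 (adjusted p = 0.000307), -2.55 ± 0.50 for Timp3 (adjusted p = 0.0011) and 2.06 ± 0.40 for Adam10 (adjusted p = 0.001). Adam19, Adamts7, Adamts9 and Mmp17 were the other 4 lower ones. Adamts18 lay at or below the filter level in YFP luminal cells and K5-PIK tumours, so its value is a fitted one and its call a description. By construction this contrast is the difference between the tumour groups minus the difference between the YFP gates. The call of Adamts9 (-2.12 ± 0.69, adjusted p = 0.031) was lost without several arrays and the other 10 held without each.

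Between the tumours of the 2 origins limma called 0 of 43 members and 0.0% of all genes. An unadjusted p below 0.05 was found for 2 members and for 1225 of 13244 genes. The members with the lowest p were Adamts16 (0.36 ± 0.12, adjusted p = 0.48) and Mmp24 (-0.38 ± 0.17, adjusted p = 0.526). For Mmp2 the K5-PIK minus K8-PIK difference was -0.21 with an SE of 0.93 (adjusted p = 0.947), so that differences of severalfold in either direction lie within its error. A simulation with 7 and 3 arrays, in which many genes were shifted together, recovered 0.87 of genes given a log2 difference of 2 and 0.51 of those given 1. The adjustment is stricter where few genes differ, and these shares are over genes of all spreads. They do not say how often a single member, or one as variable as Mmp2, would be found.

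**Figure D4:**
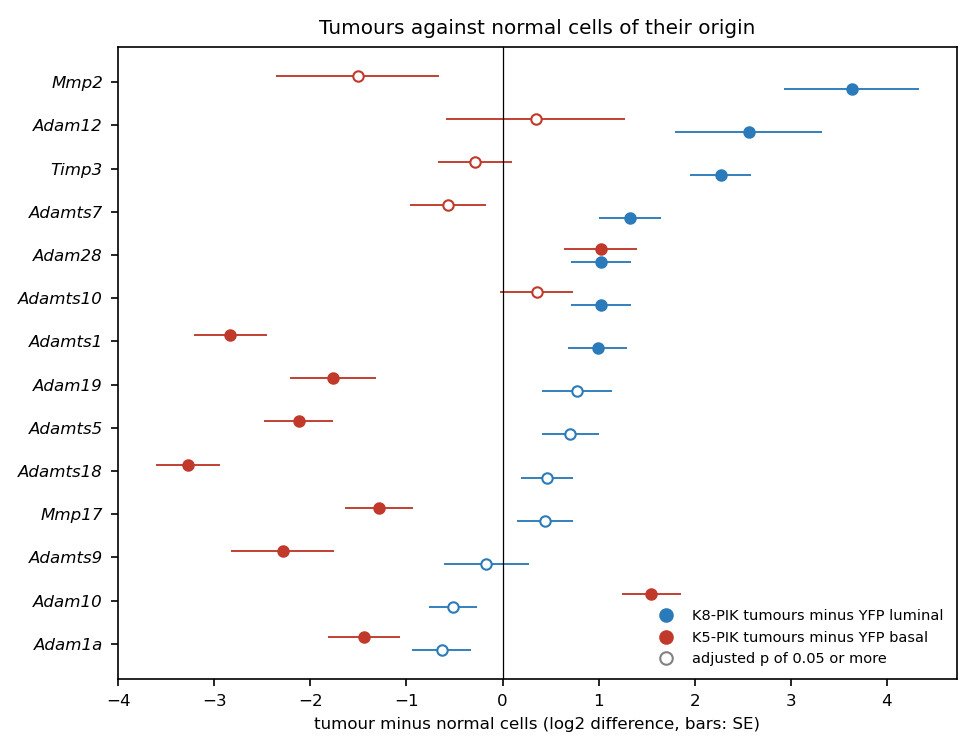
Change in log2 level (horizontal axis, ± SE) from normal cells to tumours for 14 members: K8-PIK tumours minus YFP luminal cells in blue and K5-PIK tumours minus YFP basal cells in red, with open points not called. Mmp2 lies at 3.63 for luminal origin and at -1.51 for basal origin, Adamts18 at 0.46 and -3.28, and Adam10 at -0.52 and 1.55. The Adamts18 values are fitted ones, since it lay at or below the filter level in YFP luminal cells and K5-PIK tumours.

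K8-PIK-p53 tumours held more of several MMPs than normal luminal cells. Against YFP luminal cells 16 of 43 members were called, all higher: 8 MMPs, 3 ADAMs, 3 ADAMTS proteases and 2 TIMPs. Of all genes 24.0% were called, 12.1% higher and 11.8% lower, and the median difference was 0.813 for the members and 0.0537 for all genes. This comparison shares the YFP luminal arrays with that of K8-PIK tumours.

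Mmp13, a collagenase, was at 6.83 and 8.68 in the 2 K8-PIK-p53 tumours and at 2.86 to 3.00 in the 4 YFP luminal arrays, all below the filter level, a difference of at least 3.83 (fitted 4.80 ± 0.97, adjusted p = 0.00187). Mmp3 was at 9.01 and 8.64 against 3.99 to 4.32 (4.64 ± 0.94, adjusted p = 0.00195). Mmp9 was at 9.04 and 8.68 against 4.04 to 4.57 (4.49 ± 0.78, adjusted p = 0.000763). Both tumours lay above every luminal array for each of these 3. Mmp10, stromelysin 2, was at 7.70 and 7.24 against 3.43 to 4.49 (3.59 ± 0.69, adjusted p = 0.00145), and Mmp12, the macrophage elastase, at 7.75 and 5.58 against 2.85 to 3.10, higher by at least 2.74 (fitted 3.67 ± 0.71, adjusted p = 0.00158). Mmp2 was at 10.48 and 10.33 (5.38 ± 0.97, adjusted p = 0.0009) and Adam12 at 8.52 and 9.15 (5.35 ± 1.06, adjusted p = 0.0017).

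Adam19 was higher by 2.49 ± 0.51 (adjusted p = 0.00194), Adamts7 by 2.27 ± 0.45 (adjusted p = 0.00163) and Adamts12 by at least 1.12 (fitted 1.37 ± 0.30, adjusted p = 0.00292). Timp1 was at 10.96 and 10.47 against 7.97 to 9.65 (2.04 ± 0.73, adjusted p = 0.0474), and Timp2 was higher by 0.89 ± 0.30 (adjusted p = 0.0366). The inhibitor Timp3, at 8.01 and 8.74, was not called in this comparison. Mmp23, Mmp24, Adamts5 and Adam22 completed the 16, and Adam22 stood at 3.77 in one tumour and 6.64 in the other. A limma fit on the groups compared alone called Timp3 higher (0.80 ± 0.23, adjusted p = 0.0426). It called Adam10 lower (-0.63 ± 0.13, adjusted p = 0.013), called further members higher and lost Mmp23, Adamts5 and Adam22. Of the 16 calls 7 held without each array, with 11 to 13 members called each time; Timp1 and Timp2 were lost in all 6 cases.

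Against K8-PIK tumours, which by their labels differ in the p53 allele, no member was called among the 12 tumour arrays. Here limma called 0 of 43, beside 0.325% of all genes, 0.227% higher and 0.0982% lower. An unadjusted p below 0.05 was found for 11 members and for 2615 of 13244 genes. The differences were 3.40 ± 1.17 for Mmp13 (adjusted p = 0.159), 3.22 ± 1.01 for Mmp3 (adjusted p = 0.139), 3.13 ± 0.94 for Mmp9 (adjusted p = 0.127), 2.81 ± 0.82 for Mmp10 (adjusted p = 0.125), 2.51 ± 0.80 for Timp1 (adjusted p = 0.144) and -1.47 ± 0.40 for Timp3 (adjusted p = 0.112). The outcome depended on the arrays fitted together. A fit on all 28 arrays called 10 members, Mmp3, Mmp9, Mmp10, Mmp12, Mmp13, Adam19, Adam22, Adamts12 and Timp1 higher and Timp3 lower, with adjusted p-values from 0.0132 to 0.0445. Without K8-PIK tumour 3 the tumour fit called 6, Mmp3, Mmp9, Mmp10, Mmp13, Adam19 and Timp1. It called Adamts12 alone without K8-PIK tumour 2 and Adam22 alone without K8-PIK-p53 tumour 1.

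The K8-PIK tumours were themselves uneven. Mmp9 was at 5.82, 6.24, 8.98, 4.49, 4.14, 4.95 and 5.46 in tumours 1 to 7, so tumour 3 was at the level of the K8-PIK-p53 tumours. Mmp13 was at 3.73, 7.08, 7.12, 3.69, 2.54, 3.43 and 2.86, with tumours 2 and 3 in that range and the other 5 below 4. Mmp3 was at 4.63, 7.74, 7.94, 5.32, 3.65, 4.65 and 5.27, again highest in tumours 2 and 3. Mmp10 was at 7.62 in tumour 3 and between 3.70 and 5.26 in the other 6. Timp1 was at 7.76, 9.43, 10.70, 7.64, 7.06, 7.68 and 7.14, and Adam12 at 6.10, 8.24, 9.09, 3.97, 3.42, 6.67 and 4.84. Tumours 2 and 3 were thus the 2 highest of the 7 for Mmp3, Mmp9, Mmp10, Mmp13, Adam12 and Timp1.

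**Figure D5:**
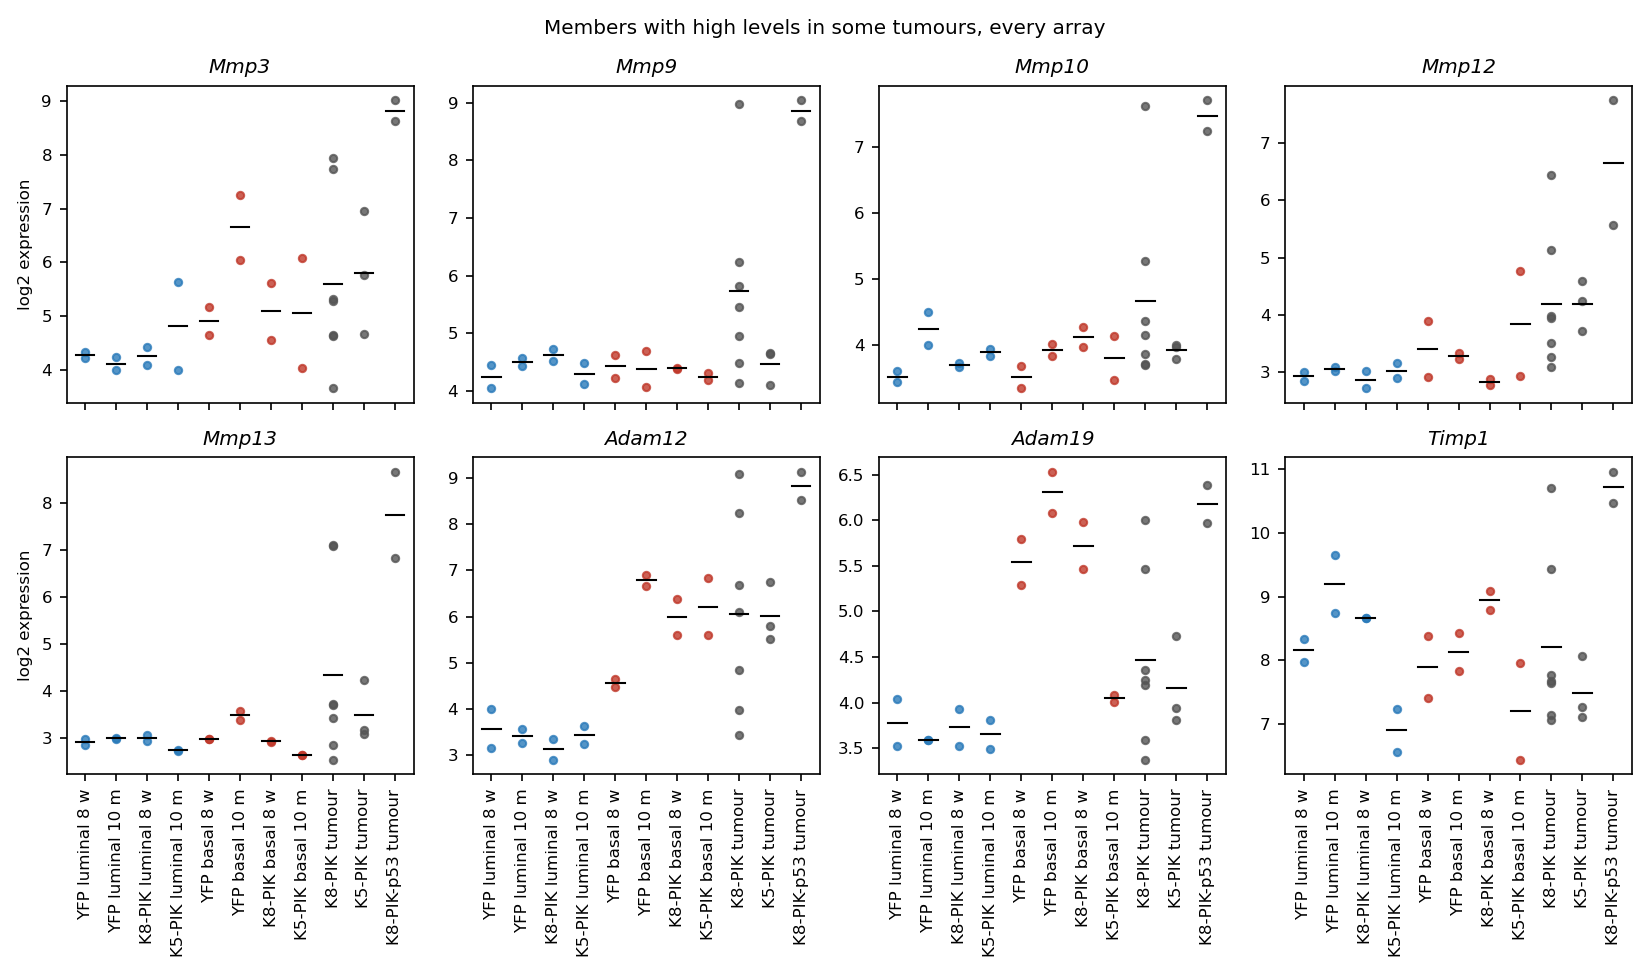
Log2 level (vertical axis) of 8 members with every array as a point, the group mean as a bar and the 11 groups along the horizontal axis (blue luminal gate, red basal gate, grey tumours). Mmp3, Mmp9, Mmp10 and Mmp13 are high in both K8-PIK-p53 tumours, at 6.83 or more, and in some K8-PIK tumours, while in the K5-PIK tumours Mmp9 lies between 4.10 and 4.66.

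Markers of other cells differed between the same tumours: for fibroblasts, K8-PIK tumours 2 and 3 had list means of 8.07 and 7.71, the K8-PIK-p53 tumours 7.34 and 7.87, and the K5-PIK tumours 5.93, 6.14 and 7.50. Against YFP luminal cells 4 of 7 fibroblast markers were called higher in K8-PIK-p53 tumours (Pdgfra by 1.99, Lum by 2.96, Col1a1 by 4.80 and Col3a1 by 4.75), and all listed ones but Col1a2 were above the 40th percentile on both arrays. Between K8-PIK-p53 and K8-PIK tumours limma called 0 of 7. The immune list mean was 5.50 and 5.12 in K8-PIK-p53 tumours and 5.28, 6.21, 5.09, 5.42, 4.41, 4.59 and 4.51 in K8-PIK tumours, highest in tumour 2, where Mmp12 was highest among them at 6.45. Ptprc, Adgre1, Itgam and Cd3e were not above the 40th percentile on every array of any group. The luminal marker mean was 7.16 and 8.04 in K8-PIK-p53 tumours and 7.35 in K8-PIK tumour 3, against 8.15 to 9.61 in the other K8-PIK tumours and 9.18 to 9.46 in K5-PIK tumours, with 6 of 9 called lower in K8-PIK-p53 tumours than in YFP luminal cells. The part of any of these in the MMP levels was not tested.

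Genes that act with the members were read from 3 lists. Of all genes 10.4% were called higher and 19.9% lower in YFP basal than luminal cells at 8 weeks. In K8-PIK cells 8.90% were higher in the basal gate, and in K5-PIK cells 13.2% were lower and 10.4% higher in the luminal gate. Against normal cells 4.47% were higher and 6.13% lower in K8-PIK tumours. These shares were 12.1% and 11.8% in K8-PIK-p53 tumours and 15.5% and 14.5% in K5-PIK tumours. Of 23 matrix substrates tested in the sorted cells, 20 were called higher in YFP basal than luminal cells at 8 weeks and none lower, with a list median of 2.32; Col17a1, of the hemidesmosome, was higher by 4.12 ± 0.41, the laminin chain Lama3 by 3.82 ± 0.39, elastin (Eln) by 3.81 ± 0.37 and the basement membrane collagen Col4a2 by 3.41 ± 0.33. In the K8-PIK gates 19 were higher in basal cells, with the proteoglycan Vcan, a substrate of Adamts1 and Adamts5, at 3.83 ± 0.26. In the K5-PIK gates 18 were lower in luminal cells and 1, Fbn2, higher. K8-PIK tumours had 16 substrates higher than YFP luminal cells and none lower, with a list median of 1.88, led by Col5a2 (3.70 ± 0.78), Vcan (3.49 ± 0.52) and fibronectin (Fn1, 3.43 ± 0.77). K8-PIK-p53 tumours also had 16 higher, with Col5a2 at 5.96 ± 1.07 and Fn1 at 5.90 ± 1.07. K5-PIK tumours had 9 lower than YFP basal cells and none higher, led by Col17a1 (-3.75 ± 0.75). This list shares Col1a1, Col1a2 and Col3a1 with the fibroblast markers.

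Of 12 activators and inhibitors outside the family, 2 were higher and 1 lower in YFP basal cells at 8 weeks. Of all genes 10.4% were higher and 19.9% lower there. The 3 were the plasminogen activator Plat (2.26 ± 0.39), the proprotein convertase Pcsk5 (1.52 ± 0.39) and the MMP inducer Bsg (-0.84 ± 0.19). In K8-PIK tumours 0 were called by limma against YFP luminal cells. In K8-PIK-p53 tumours 3 were higher, Pcolce (3.68 ± 0.82), which enhances procollagen processing, Tfpi2 (2.40 ± 0.67) and Plat (1.84 ± 0.55), and the urokinase receptor Plaur was lower (-1.0 ± 0.33).

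Of 21 membrane proteins known to be shed, 7 were higher and 4 lower in YFP basal cells at 8 weeks, beside 10.4% and 19.9% of all genes. The Notch ligands Dll1 (3.33 ± 0.23) and Jag1 (2.16 ± 0.32) and neuregulin Nrg1 (2.39 ± 0.47) were higher in basal cells, where the sheddase Adam10 was lower and Adam19 higher, and betacellulin (Btc) was lower (-3.01 ± 0.23). In the K8-PIK gates the growth factor Ereg was higher in basal cells by 5.27 ± 0.62. In K8-PIK-p53 tumours Ereg was higher than in YFP luminal cells by 5.16 ± 0.52 and N-cadherin (Cdh2) by 3.89 ± 0.58, with 3 of the list called higher and 6 lower. K5-PIK tumours had 3 higher and 7 lower than YFP basal cells, Dll1 by -2.66 ± 0.27 and Nrg1 by -2.10 ± 0.38 among the lower.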

How the data were processed

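Total RNA of 28 sorted cell samples was hybridised to Affymetrix arrays, 1 array per sample. The authors deposited log2 expression values per probe set; the submitters' processing notes name R 2.14.0, and the background correction and normalization are not given in the sources used here. Of 45141 probe sets 28898 had 1 annotated symbol, and 551 had several and 15692 none and were left out. The values were used as deposited, with the brightest probe set of each gene. R 4.3.3 with limma 3.58.1 fitted linear models holding 1 mean per group: on the 16 sorted arrays (13150 genes), the 12 tumour arrays (13244) or all 28 (13663, tumours against normal cells). Genes were kept above the 40th percentile of an array on at least 2 arrays, and p-values were adjusted over all genes kept. The number of arrays limits the precision. The fits were tested on simulated data. The members and the lists were chosen with earlier results of these data known. Members called with replicates that did not overlap were given values, up to 10 in each direction, as were well-known members and up to 4 genes per list. Same-numbered arrays did not deviate together in every pair, so the numbers were not taken as pairs. Each of the 16 sorted arrays nonetheless had an array of its own number as the closest of another group. The 7 alternatives per comparison, besides leaving out each array, were other filters, normalization, priors, probe-set means, a replicate block and other sets of arrays. Figures were drawn with matplotlib 3.10.9 in Python 3.11.15.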

Additional observations from a re-analysis of the deposited data

Results flagged for a closer look

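In the 7 K8-PIK tumours 5 of 43 members had 1 array far above the others. The nominal rate of the rule is about 1 in 20. The share over all genes is not given here, and members measured on the same tumour are not independent, so an excess among the members was not shown. Tumour 2 was at 5.23 for Adam23 (next highest 4.08), at 5.22 for Adamts12 (next 4.25) and at 6.96 for Mmp23 (next 6.13). Tumour 3 was at 5.05 for Adam24 (next 4.68) and at 7.62 for Mmp10 (next 5.26).

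The change from normal cells to tumours differed with the cell of origin, by limma's test of the difference, for 11 of 43 members, or 25.6%, near the 24.1% of all genes. The basal-origin minus luminal-origin difference on the log2 scale was -5.14 for Mmp2, -3.82 for Adamts1, -3.74 for Adamts18, -2.83 for Adamts5, -2.55 for Timp3, -2.54 for Adam19, -2.12 for Adamts9, -1.89 for Adamts7 and -1.73 for Mmp17. It was 2.06 for Adam10 and 0.75 for Adam33. The call of Adamts18 is a description, since it lay at or below the filter level in YFP luminal cells and K5-PIK tumours. By sign alone the 2 changes were opposite except for Adamts9, at -2.29 from basal cells and -0.17 from luminal cells. Only Adamts1 had both changes called. Adam33 had neither called, and each of the other members had only 1 of the 2, so opposite signs do not mean opposite called changes. Timp3 changed by 2.27 from luminal cells and by -0.28 from basal cells, and Adamts7 by 1.32 and -0.57.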

How the results depend on the processing

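For the 126 calls of single members, 1638 alternative values were computed; 1381 kept direction and call, 256 kept the direction and lost the call, and 1 reversed: Adam22 in K8-PIK-p53 tumours against YFP luminal cells was -0.22 without the second of these tumours and 2.65 without the first. Of 83 calls lost other than by leaving out an array, 55 were lost in a fit on other arrays. With all 28 arrays fitted together the members called were 9 of 16 between YFP gates at 8 weeks, 11 of 21 at 10 months, 7 of 12 between K8-PIK gates, 9 of 17 between K5-PIK gates, 1 of 7 for K5-PIK basal against YFP basal cells, 0 of 3 for K8-PIK basal against YFP basal cells, 0 of 4 for K5-PIK luminal against YFP luminal cells, 0 of 3 for time in YFP basal cells, and 10 instead of 0 for K8-PIK-p53 against K8-PIK tumours. Fitting only the groups compared gave 1 instead of 7 for K8-PIK tumours against YFP luminal cells and 15 instead of 9 for K5-PIK tumours against YFP basal cells. For K8-PIK-p53 tumours against YFP luminal cells it also called Timp3 higher and Adam10 lower, and it lost Mmp23, Adamts5 and Adam22. Quantile normalization gave 4 for K8-PIK tumours and 1 instead of 0 for the gate difference by time, and no dim filter also 1 for the latter. A replicate block gave 2 for the gate difference by time, 13 instead of 7 for K8-PIK tumours against YFP luminal cells and 19 instead of 11 for the change by origin. In the last 2 comparisons the block does not test the full group. Numbers 4 to 7 occur only in K8-PIK tumours, 1 array each, and the block fits those arrays exactly. The K8-PIK tumour mean then rests on tumours 1 to 3 alone. For the other changes in count the cause was not tested. The replicate numbers were not taken as pairs: 12 of 28 same-numbered pairs of sorted arrays and 1 of 7 of tumour arrays correlated above 0.1 in their deviations, although each of the 16 sorted arrays had an array of its own number as the closest of another group.

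Leaving out 1 array at a time, the members called ranged from 9 to 15 between YFP gates at 8 weeks, 15 to 16 at 10 months, 10 to 12 between K8-PIK gates and 12 to 15 between K5-PIK gates. They ranged from 0 to 1 for K8-PIK against YFP luminal cells, 2 to 10 for K5-PIK against YFP basal cells, 0 to 2 for K8-PIK basal against YFP basal cells, 1 to 7 for K5-PIK luminal against YFP luminal cells, 0 to 3 for time in basal cells and were 0 throughout for time in luminal cells and for the gate difference by time. For tumours they ranged from 2 to 7 (K8-PIK against YFP luminal), 8 to 8 (K5-PIK against YFP basal), 11 to 13 (K8-PIK-p53 against YFP luminal), 0 to 6 (K8-PIK-p53 against K8-PIK), 0 to 0 (K5-PIK against K8-PIK) and 10 to 12 (change by origin), and from 21 to 28 for any difference. A left-out array of a pair leaves 1, which is assumed to vary like the other groups. Of 77 calls of members with several probe sets, 66 had all sets in the same direction and 11 did not.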
